A study of Homo sapiens and Mus musculus with 74 samples.

Results

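The mRNA decay factors described here are 10 genes that shorten, uncap or degrade messenger RNA, or that mark faulty messages for degradation: Cnot1, Cnot2, Cnot3, Cnot7, Xrn1, Xrn2, Dcp2, Upf1, Upf2 and Smg6. They were chosen by symbol in the mouse count table, and the transcript that encodes a gene's longest protein stands for it, so that 10 of the 22484 coding genes and 10 of the 142604 transcripts in the table are followed. The study deleted the coding sequence of Rpl41, which encodes the smallest ribosomal protein, in C57BL/6J zygotes with CRISPR-Cas9 and compared homozygous knockout mice (Rpl41-/-, KO) with wild-type mice (Rpl41+/+, WT). Kidney and brain were taken from 10-week-old males, and the deletion, introduced in zygotes, is not limited to a cell type. RNA-seq was made from poly(A)-selected RNA, Ribo-seq from the fragments that single ribosomes protect from RNase I (footprints), and, in kidney alone, disome-seq from the longer fragments under pairs of abutting ribosomes. With 3 libraries for each genotype in each tissue and assay, 30 libraries entered the analysis. The labels number the libraries without tying them to animals, so p-values measure the spread between these libraries. In tissue samples, a lower value can mean fewer cells of a type or less RNA in each cell, and these cannot be told apart here.

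Most mammalian messages are degraded from both ends after their poly(A) tail has been removed. The CCR4-NOT complex shortens the tail. CNOT1 is its scaffold, CNOT2 and CNOT3 form its NOT module, and CNOT7 is a deadenylase whose place can be taken by its paralog CNOT8. DCP2 then hydrolyses the 5′ cap, and XRN1 degrades the uncapped body from the 5′ end in the cytoplasm, often behind the last translating ribosome. XRN2 is the nuclear 5′-to-3′ exonuclease, which also acts when RNA polymerase II terminates. UPF1 is the RNA helicase at the centre of nonsense-mediated decay, UPF2 binds and activates it, and SMG6 cuts the targeted message close to the stop codon. Deadenylation and nonsense-mediated decay are both coupled to translation.

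Whether reads of related genes can be told apart depends on sequence, and the paralogs were compared first. Cnot7 and Cnot8 encode deadenylases of 285 and 292 amino acids, and the longest stretch their coding sequences share is 20 bases, from base 463 to base 482 counted from the A of the start codon in both. In Xrn1 and Xrn2 the longest shared stretch is 16 bases, from base 101 to 116 of Xrn1 and base 158 to 173 of Xrn2. Both stretches are shown here because they are the longest that the coding sequences of each pair share, and both come from the GENCODE M21 transcript sequences (GRCm38).
Cnot7 and Cnot8: tcatttcacagtggttatga
Xrn1 and Xrn2: tggatatgaatgggat
None of the 28-base runs in the coding sequences of Cnot2, Cnot7, Xrn1, Xrn2, Dcp2, Upf1 and Smg6 occurs in a transcript of another gene. Cnot1 shared 13.2% of its 7101 coding runs with Gm6158 and Gm17752, and Cnot3 shared 35.6% of its 2226 runs with Gm9207, so the counts of these 2 members may include or lose reads of those copies. The same holds for Cnot8, which shared 39.7% of its 849 runs with Gm18860. Upf2 shared 5 runs of 3780. Runs shorter than 28 bases and bases outside the coding sequences were not searched for in other genes. The study also isolated footprints shorter than 28 bases.

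The bases around the start codon are shown for the 3 members whose footprints rose in KO kidney and for Cnot7, with the start codon in capitals.
Xrn1: acggtcaaaATGgga
Xrn2: ccgctggtcATGgga
Upf1: ggcggcaggATGagt
Cnot7: gctgtcactATGcca
Efficient start codons commonly have a purine 3 bases before them and a G after them. All 4 sequences shown have the purine, and Xrn1 and Xrn2 also have the G. Dcp2 was left out of this count. Of the other 9 members, 8 had the purine and 4 had both features, beside 84% and 41% of 20132 coding genes.

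In GENCODE M21 on GRCm38, 3 of the members lie on chromosome 8 and 2 on chromosome 2. Cnot1 lies at 8:95719451-95807464 on the minus strand with 49 exons and 2376 codons, the longest of the 10. Cnot7 lies at 8:40492540-40515847 and Upf1 at 8:70331525-70353278, both on the minus strand. Xrn2 lies at 2:147012996-147078000 and Upf2 at 2:5951469-6056703, both on the plus strand. Cnot2 (10:116485161-116581511, minus strand), Cnot3 (7:3645268-3661109, plus strand), Xrn1 (9:95954760-96057803, plus strand), Dcp2 (18:44380502-44424969, plus strand) and Smg6 (11:74925823-75164448, plus strand) each lie on a chromosome of their own. The Dcp2 transcript has 1266 coding bases and 7243 bases after them.

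Count totals ranged from 11036643 to 42452425 in kidney Ribo-seq, 9498663 to 35881929 in brain Ribo-seq, 44998381 to 123745890 in RNA-seq and 1187636 to 3018963 in disome-seq. Values are counts-per-million (CPM) values, with library sizes scaled by the trimmed mean of M values within a tissue and assay. The targeted gene matched the labels in all libraries. Its transcript had 5721, 7502 and 3695 RNA-seq reads in WT kidney and 3, 3 and 8 in KO kidney, 11532, 12199 and 8981 in WT brain and 7, 12 and 6 in KO brain, and it had 37 to 85 footprints in the WT Ribo-seq libraries and 0 to 4 in the KO ones. KO kidney RNA-seq libraries 2 and 3 stood apart from the others, with 1.76% and 1.67% of counts on the mitochondrial rRNA genes beside 0.436% to 0.962% in the other 4 kidney RNA-seq libraries. Summed levels of 6 kidney markers (3845 to 4315 CPM in kidney RNA-seq and at most 0.696 in brain RNA-seq) and of 6 brain markers (3144 to 3572 in brain and at most 6.55 in kidney) matched the labelled tissues. Marker sums, here and further on, are CPM of all counts, without scaling by the trimmed mean of M values.

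Levels per length were compared in WT tissues, as reads per kilobase of transcript or footprints per kilobase of coding sequence, in both cases after division by the library total (per-length CPM). In kidney, Upf1 had the highest footprint level, 12.1 ± 1.26 (SD, n = 3), above Cnot2 at 7.07 ± 0.589, Xrn2 at 6.81 ± 0.898 and Cnot1 at 6.07 ± 0.582. The ranges of Cnot2, Xrn2 and Cnot1 overlapped each other in that order, whereas the range of Upf1 lay apart from that of Cnot2. Cnot7 followed at 4.67 ± 0.879. Then came Upf2 at 2.85 ± 0.333, Smg6 at 2.54 ± 0.271 and Cnot3 at 2.50 ± 0.552, whose ranges overlapped each other in that order. Xrn1 and Dcp2 had the lowest levels in kidney, 1.80 ± 0.160 and 1.55 ± 0.156, and did not separate from each other. In brain the order began with Cnot7 at 11.4 ± 0.867, followed by Upf1 at 8.79 ± 1.15 and Cnot2 at 6.78 ± 0.224. Dcp2 came next in brain with 6.40 ± 0.704 and a range that overlapped those of its neighbours Cnot2 and Cnot1. Xrn1 was lowest in brain at 1.71 ± 0.193.

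In RNA-seq, Cnot2 was highest in WT kidney (6.81 ± 0.182 per-length CPM) and Cnot7 in WT brain (8.60 ± 0.947). The transcript that stands for Cnot7 is not its most-read one, so its RNA level and place depend on that choice. From Cnot7 to Xrn2 in kidney, 5 members lay between 4.14 and 3.42, and each range overlapped the next. Xrn1 was lowest in both tissues, at 0.163 ± 0.0149 in kidney and 0.173 ± 0.118 in brain, a value that depends on the transcript chosen and is taken up again further on. The ratio of footprint CPM to RNA CPM in WT kidney, neither per length, ran from 0.222 for Dcp2 through 0.324 for Cnot7 and 1.97 for Cnot1 to 2.37 for Upf1, with Xrn1 at 10.4.

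**Figure D1:**
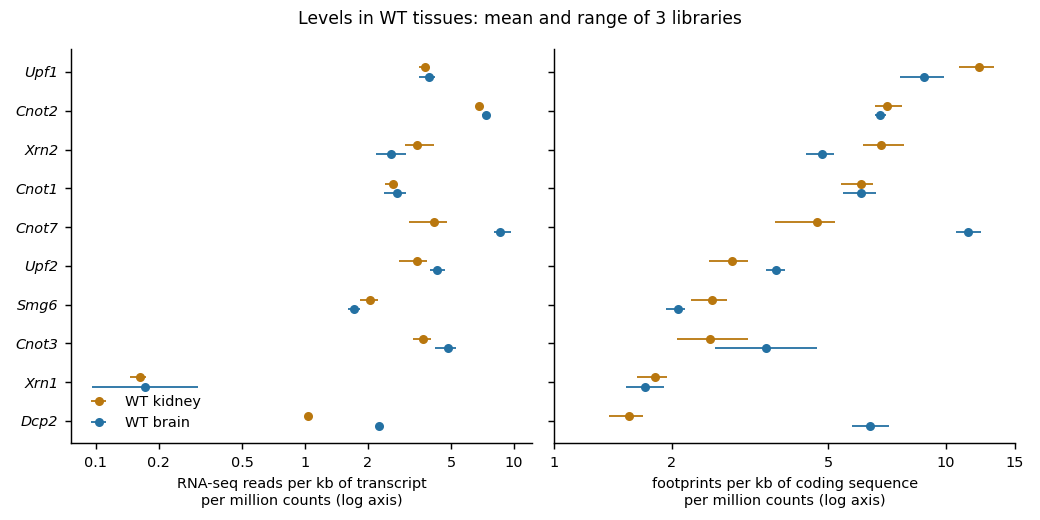
Levels of the 10 genes in WT kidney and WT brain on log axes, as RNA-seq reads per kilobase of transcript (left) and footprints per kilobase of coding sequence (right), both in CPM, with points for the mean and bars for the range of 3 libraries. Dcp2 and Cnot7 lie farther to the right in brain than in kidney, and Xrn1 is lowest in RNA-seq in both tissues.

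In KO kidney, footprints rose on 3 of the 10 members, the exonuclease genes Xrn1 and Xrn2 and the helicase gene Upf1, and fell on none at an adjusted p below 0.05 (quasi-likelihood test of edgeR, p-values adjusted by Benjamini-Hochberg across 75266 transcripts). Of all transcripts tested, 7.76% were called in KO kidney footprints, 4.75% higher and 3.01% lower, and scaling by library totals alone turned that split from 3573 higher and 2265 lower into 1531 and 2543. Xrn1 had 9.02, 8.40 and 9.99 CPM in the WT libraries and 14.7, 13.8 and 13.8 CPM in the KO libraries. The groups did not overlap, and the log2 fold change was 0.62 ± 0.11 (SE, adjusted p = 0.00865 by edgeR). Xrn2 had 17.4, 17.5 and 22.3 CPM in WT and 29.9, 28.1 and 27.5 CPM in KO, again with no overlap, and a log2 fold change of 0.58 ± 0.12 (adjusted p = 0.0142 by edgeR). Upf1 had 42.3, 41.4 and 36.2 CPM in WT and 52.3, 59.1 and 57.7 CPM in KO. Its groups did not overlap either, and its log2 fold change was 0.50 ± 0.11 (adjusted p = 0.0194 by edgeR).

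The other 2 members of nonsense-mediated decay did not pass the test in kidney footprints. Upf2 had 11.2, 11.2 and 9.40 CPM in WT and 11.7, 14.6 and 15.2 CPM in KO, a log2 fold change of 0.40 ± 0.12 (adjusted p = 0.0638 by edgeR) with groups that did not overlap. Smg6 had 11.1, 11.1 and 9.48 CPM in WT and 9.98, 16.0 and 13.6 CPM in KO, a log2 fold change of 0.36 ± 0.15 (adjusted p = 0.151). KO library 1 of Smg6 lay within the WT range.

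None of the 4 CCR4-NOT subunits passed the test in kidney footprints. The scaffold gene Cnot1 had 42.5, 46.2 and 38.4 CPM in WT and 47.8, 55.2 and 58.8 CPM in KO (log2 fold change 0.35 ± 0.12, adjusted p = 0.0807 by edgeR), and Cnot2 had 10.5, 10.7 and 12.5 CPM in WT and 12.9, 13.3 and 13.6 CPM in KO (0.25 ± 0.11, adjusted p = 0.159). Both genes had every KO library above every WT library. Cnot3 had 6.65, 4.64 and 5.22 CPM in WT and 7.11, 6.46 and 5.61 CPM in KO, a log2 fold change of 0.16 ± 0.15. The deadenylase gene Cnot7 had 2.96, 4.44 and 4.41 CPM in WT and 1.68, 3.29 and 3.72 CPM in KO, a log2 fold change of -0.28 ± 0.23 (adjusted p = 0.486), and its groups overlapped. Its paralog Cnot8 had 11.8, 10.8 and 11.8 CPM in WT and 11.2, 10.6 and 10.2 CPM in KO, a log2 fold change of -0.12 ± 0.10 (adjusted p = 0.507). The decapping enzyme gene Dcp2 had 1.90, 1.75 and 2.13 CPM in WT and 1.38, 1.82 and 1.86 CPM in KO, from 14 to 78 reads a library, and a log2 fold change of -0.12 ± 0.20 (adjusted p = 0.764).

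In all, 6 of the 10 members had every KO kidney footprint library above every WT library, beside 15.5% of all transcripts tested, and none had the reverse, beside 14.3%. In either direction 29.7% of all transcripts had groups that did not overlap. The median log2 fold change of the members was 0.35 beside -0.04 over all tested genes taken by 1 transcript each. The 3 calls depended on KO libraries 2 and 3, the deepest of this assay. Without either of these, no member was called, while the log2 fold changes of Xrn1, Xrn2 and Upf1 stayed between 0.46 and 0.64 with adjusted p between 0.0506 and 0.101 (edgeR). Over all transcripts, the fit without KO library 2 called 517 of 72491 and the fit without KO library 3 called 285 of 72679. Without KO library 1, which had 11036643 counts, 6 members were called, with Cnot1, Upf2 and Smg6 added. That fit called 5191 of 80505 transcripts. The call of Xrn2 was also lost without WT library 1, and that of Upf1 under scaling by library totals alone, with the direction kept in both. In the same libraries the summed level of 5 leukocyte markers was 130 to 140 CPM in KO and 75.7 to 116 in WT, that of 4 liver markers 111 to 114 in KO and 59.0 to 82.0 in WT, that of 6 kidney markers 4913 to 5357 in KO and 3671 to 4227 in WT, and that of 15 pancreas markers 7.62 to 10.7 in KO and 15.5 to 411 in WT, with no marker at 0 in either group. Their part in these results was not tested.

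**Figure D2:**
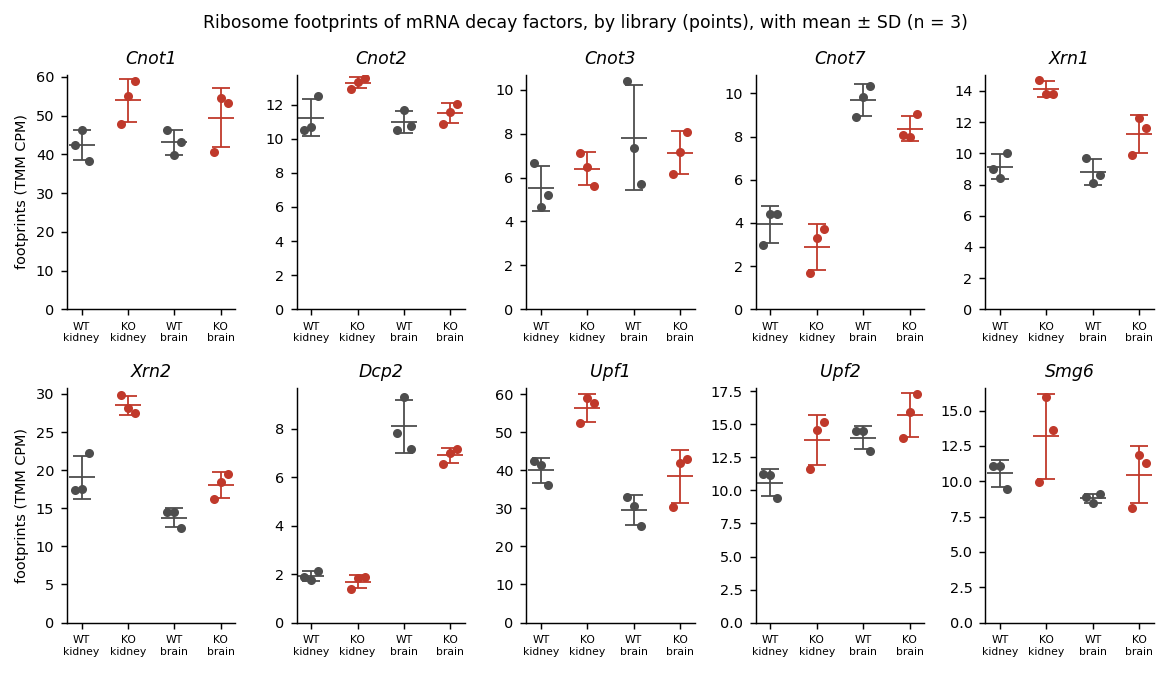
Footprints of each gene in CPM, with 1 point per library, in WT (grey) and KO (red) kidney and brain, and bars for the mean ± SD of 3 libraries. Each panel has its own axis from 0. The 3 KO kidney libraries of Xrn1 lie between 13.8 and 14.7 CPM and the WT kidney libraries between 8.40 and 9.99 CPM.

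Proteins of the 10 genes differ in length, and the footprint changes were set against that length. The study had already reported, in both tissues, more footprints on transcripts of the longest proteins and lower abundance of those proteins. It cautioned that more footprints can reflect slower elongation, and it did not take them as more protein being made. The 6 members of 951 or more amino acids (Xrn2, Upf1, Upf2, Smg6, Xrn1 and Cnot1) had kidney log2 fold changes from 0.35 to 0.62, and the 4 members of 751 or fewer (Cnot7, Dcp2, Cnot2 and Cnot3) from -0.28 to 0.25. In brain footprints the longer proteins had 0.17 to 0.40 and the shorter ones -0.22 to 0.07. The division between 751 and 951 amino acids was chosen after the values were seen, and with Xrn2 (951 amino acids, 0.58 in kidney and 0.40 in brain) among the shorter members the ranges would overlap in both tissues. Spearman's rho between protein length and log2 fold change over the 10 members was 0.68 in kidney and 0.65 in brain. Over all coding genes tested, rho was 0.42 in kidney (13454 genes) and 0.34 in brain (14465 genes). Genes of 951 or more amino acids had a median kidney log2 fold change of 0.22 and those of 751 or fewer -0.07, beside medians of 0.45 and 0.02 for the members of the same classes. These are descriptions over genes measured in the same libraries, and genes are not independent replicates.

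In kidney RNA-seq none of the 10 members passed the test, by edgeR or by DESeq2, while 2 had an unadjusted p below 0.05 by edgeR. Of all 70545 transcripts tested, 0.00992% were called and 16.8% had an unadjusted p below 0.05. The 2 members were Smg6 and Xrn2, and both had every KO library above every WT library, as did 10.1% of all transcripts (20.2% did not overlap in either direction). Smg6 had 11.3, 10.5 and 12.1 CPM in WT and 12.9, 20.3 and 18.1 CPM in KO, a log2 fold change of 0.60 ± 0.19 (adjusted p = 0.292 by edgeR). The groups did not overlap, and the 2 highest values belonged to KO libraries 2 and 3, which carried the most mitochondrial rRNA. Without KO library 1 the log2 fold change of Smg6 was 0.77 with an adjusted p of 0.0200 (edgeR), in a fit that called 12466 of 73294 transcripts, and this was the only member call among the kidney RNA-seq fits run. Xrn2 had 10.2, 10.1 and 13.0 CPM in WT and 13.7, 15.7 and 15.2 CPM in KO, a log2 fold change of 0.42 ± 0.16 (adjusted p = 0.292). Upf2 had 18.0, 19.4 and 13.4 CPM in WT and 17.4, 29.0 and 22.9 CPM in KO (0.45 ± 0.22), and its groups overlapped. The log2 fold changes of Cnot1, Cnot2 and Cnot3 lay between -0.01 and 0.12, and that of Upf1 was -0.05 ± 0.13, on 656 to 916 reads a library. Dcp2 had -0.19 ± 0.17. Cnot7 had -0.26 ± 0.20, and 0.17 ± 0.16 by its most-read transcript, so that its sign depended on the transcript. Scaling by library totals alone moved the median log2 fold change of all transcripts in this comparison from -0.03 to -0.19.

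Translation efficiency (TE) was compared as the change of footprints beyond the change of RNA, in 1 model of both assays. No member was called in kidney TE by edgeR, 2 had an unadjusted p below 0.05, and DESeq2 called Upf1 among 4483 of 89685 transcripts. The percentage of these called by edgeR was 0, and 19.4% had an unadjusted p below 0.05. The study tested TE with another tool, RiboDiff, and reported significant changes for many transcripts in both kidney and brain. Upf1 rose by 0.50 in footprints with -0.05 in RNA, and its TE difference was 0.55 ± 0.17 (adjusted p = 0.135 by edgeR). That difference had an adjusted p of 0.0158 by DESeq2, and of 0.0440 by edgeR without KO kidney RNA-seq library 1, where 16559 transcripts were called. Xrn1 had the largest TE difference of the members, 0.80 ± 0.36 (adjusted p = 0.251), on few RNA-seq reads. Xrn2 and Upf2, whose footprint and RNA changes had the same sign, had TE differences of 0.16 ± 0.20 and -0.05 ± 0.29, and Smg6 had -0.26 ± 0.28.

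The RNA level of Xrn1 depended on the transcript that stands for it. The transcript with the longest protein (1723 amino acids) ends 221 bases after the coding sequence and collected 39, 49 and 42 RNA-seq reads in WT kidney and 27, 50 and 26 in KO kidney. A transcript encoding 1719 amino acids with 4997 bases after the coding sequence collected 317, 316 and 272 reads in WT kidney and 331, 375 and 254 in KO kidney. Reads that fit both transcripts can be counted in each. Footprints were nearly the same on both, with the short transcript at 96.2% to 100.0% of the count of the long one in kidney Ribo-seq. In RNA-seq the short transcript had 8.16% to 15.5% of the count of the long one in kidney. In brain RNA-seq this percentage was 6.84, 7.14 and 19.0 in WT and 18.1, 5.82 and 4.55 in KO, so WT library 3 and KO library 1 stood apart from the other 4. For the long transcript the kidney RNA log2 fold change was 0.24 ± 0.21 in place of -0.16 ± 0.45, and the TE difference 0.38 ± 0.23 in place of 0.80 ± 0.36, neither past the test by edgeR (adjusted p = 0.521 and 0.390). The kidney footprint change was 0.60 ± 0.10 for the long transcript (adjusted p = 0.00865 by edgeR).

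**Figure D3:**
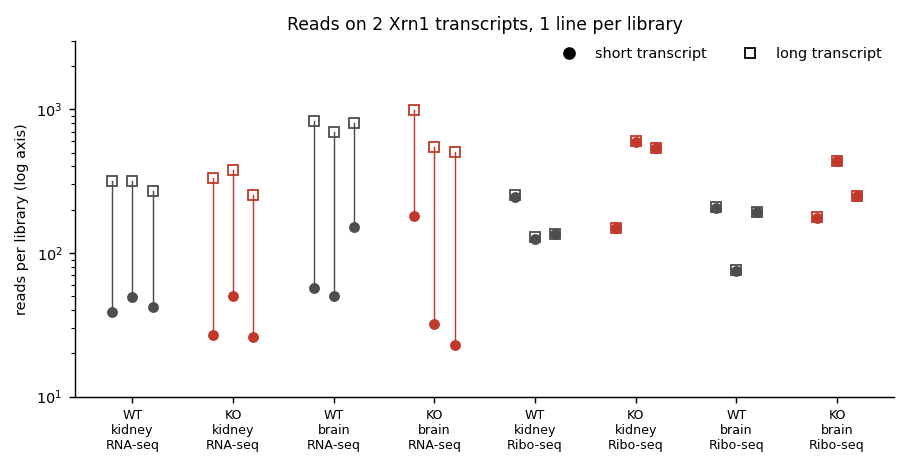
Reads on the Xrn1 transcript with the longest protein (filled circles) and on the transcript with the long 3′ end (open squares) in each RNA-seq and Ribo-seq library of WT (grey) and KO (red) kidney and brain, on a log axis, with a line joining the pair of a library. The symbols of a pair nearly coincide in Ribo-seq, whereas in RNA-seq the lower symbol stands at 4.55% to 19.0% of the upper.

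In kidney disome-seq no member was called by edgeR or DESeq2, and 2 of the 9 tested had an unadjusted p below 0.05. Of all 34754 transcripts tested, 0.201% were called (0.0691% higher) and 10.8% had an unadjusted p below 0.05. With the library number as a block, 252 transcripts in place of 70 were called and still no member. Smg6 had 25.6, 27.2 and 15.4 CPM in WT and 39.5, 35.5 and 31.2 CPM in KO, from 17 to 85 reads a library, with a log2 fold change of 0.58 ± 0.21 (adjusted p = 0.285 by edgeR). Upf2 had 13.8, 17.3 and 9.06 CPM in WT and 18.6, 23.7 and 20.5 CPM in KO (0.55 ± 0.24, adjusted p = 0.414). In both genes the KO values were all higher than the WT values, as in 8.07% of all transcripts tested, and no member had the reverse, as 8.9% did. In the same libraries the summed markers of leukocytes (42.4 to 63.3 CPM in WT, 64.2 to 95.9 in KO), liver (16.6 to 25.6 and 33.4 to 45.5) and kidney (1751 to 2210 and 2420 to 2548) were higher in KO, and those of blood (269.7 to 308 and 145 to 199.6) and pancreas (3.64 to 50.4 and 0.842 to 3.44) were lower. Their part in these values was not tested. Disome reads of Dcp2 numbered 3 to 9 a library, too few to be tested there. Relative to footprints, no member's disomes were called (0% of 67065 transcripts were called by edgeR, 204 transcripts with the library number as a block, and no member by that fit or by DESeq2). The single member with an unadjusted p below 0.05, against 5.91% of all transcripts, was Xrn1. Its log2 difference was -0.64 ± 0.25 (adjusted p = 0.808), from a footprint change of 0.62 and a disome change of -0.02 ± 0.24. Dcp2 did enter this comparison, with the largest difference of the members, 1.13 ± 0.56 (adjusted p = 0.846 by edgeR). That value rests on the same 3 to 9 disome reads a library.

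In KO brain no member passed the test. In brain RNA-seq, where 0.0134% of 89237 transcripts were called and 3.46% had an unadjusted p below 0.05, no member was below 0.05 unadjusted or called by DESeq2. All 10 had overlapping groups, beside 9.51% of transcripts without overlap (5.08% with KO above and 4.43% with KO below). The log2 fold changes ranged from -0.36 ± 0.62 for Xrn1 (-0.24 ± 0.13 by its long transcript, on 505 to 994 reads a library) to 0.26 ± 0.14 for Upf2, and 7 of the 10 lay between -0.11 and 0.11. In brain footprints, 3 members had an unadjusted p below 0.05 and none was called by edgeR or DESeq2, beside 0.0345% of 81112 transcripts called (0.00123% higher and 0.0333% lower) and 12.6% below 0.05 unadjusted. These were the same 3 members that rose in kidney. Xrn2 had 14.5, 14.5 and 12.3 CPM in WT and 16.2, 18.5 and 19.5 CPM in KO (log2 fold change 0.40 ± 0.12, adjusted p = 0.253 by edgeR), and its groups did not overlap. Xrn1 had 9.73, 8.11 and 8.62 CPM in WT and 9.90, 12.3 and 11.6 CPM in KO (0.35 ± 0.13, adjusted p = 0.312), again without overlap. Upf1 had 32.9, 30.7 and 25.3 CPM in WT and 30.4, 42.0 and 43.0 CPM in KO (0.38 ± 0.15, adjusted p = 0.320), and KO library 1 lay within the WT range. Dcp2 had 7.83, 9.30 and 7.18 CPM in WT and 6.54, 6.99 and 7.16 CPM in KO, every KO library below every WT library, with a log2 fold change of -0.21 ± 0.13 (adjusted p = 0.537). In all transcripts 9.4% had KO above WT without overlap, as Xrn1 and Xrn2 did, and 8.7% had KO below WT, as Dcp2 did. Summed blood markers were 646 to 1793 CPM in WT and 340 to 441 CPM in KO brain Ribo-seq, and 772 to 2394 and 405 to 735 CPM in brain RNA-seq. In brain RNA-seq the brain markers also lay apart as CPM of all counts (3144 to 3325 in WT, 3487 to 3572 in KO). So did 3 choroid plexus markers (318 to 344 and 374 to 395). These ranges are not given on the scaled values, where they may differ. The part of the blood, brain and choroid plexus markers in the values above was not tested. In brain TE no member was called by edgeR or DESeq2 (0% of 98861 transcripts by edgeR), and Xrn2, at 0.43 ± 0.19, had an unadjusted p below 0.05, beside 4.85% of all transcripts. So did Xrn1 by its long transcript, at 0.60 ± 0.20 (adjusted p = 0.880 by edgeR), in place of 0.69 ± 0.64 by the short one.

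Set side by side, kidney and brain footprints changed with the same sign in 9 of the 10 members, all but Cnot3 (0.16 ± 0.15 in kidney and -0.13 ± 0.20 in brain). Over 17641 genes taken by 1 transcript each, 68.4% had the same sign in both tissues. Pearson's r between the 2 sets of log2 fold changes was 0.94 over the members and 0.57 over those genes, both as descriptions. The tissue difference itself was called for no member by edgeR or DESeq2 and for 0.0801% of 88666 transcripts. No member had an unadjusted p below 0.05 for it, beside 7.69% of transcripts. The differences, brain minus kidney, ranged from -0.30 ± 0.27 for Cnot3 to 0.05 ± 0.27 for Cnot7, and that of Xrn1 was -0.28 ± 0.17. For RNA the tissue difference was also called for no member by edgeR or DESeq2 and for 0.00108% of 92865 transcripts. Smg6, with -0.56 ± 0.22 (adjusted p = 0.599), was the single member below 0.05 unadjusted, beside 8.13% of transcripts, and it was called (-0.73, adjusted p = 0.0380 by edgeR) when KO kidney RNA-seq library 1 was left out, in a fit that called 5655 of 96889 transcripts.

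**Figure D4:**
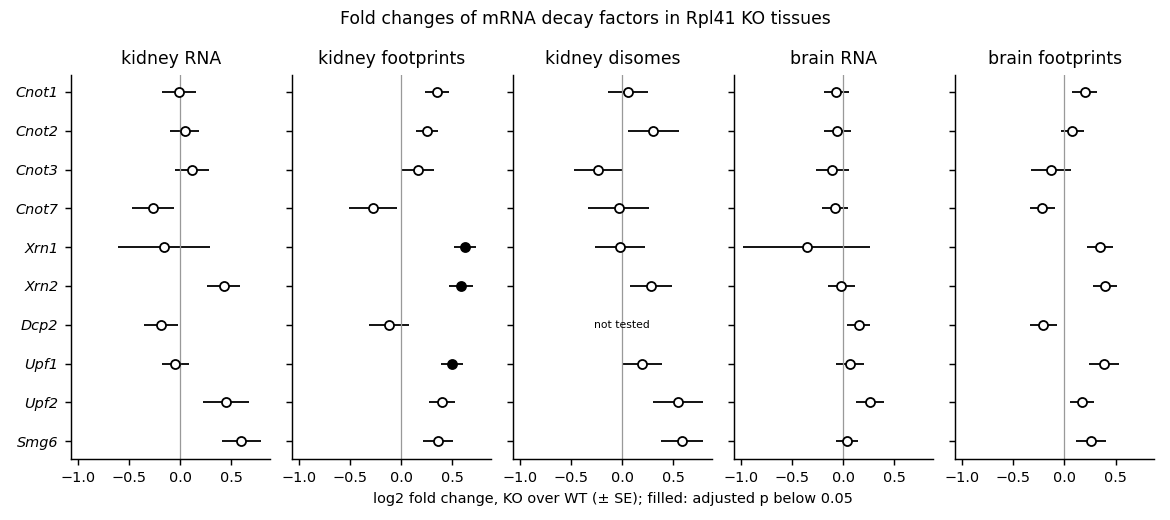
Log2 fold change, KO over WT, of each gene in kidney RNA, kidney footprints, kidney disomes, brain RNA and brain footprints, with bars for the SE and filled points for an adjusted p below 0.05. The 3 filled points are Xrn1, Xrn2 and Upf1 in kidney footprints, and their brain footprint values of 0.35, 0.40 and 0.38 lie on the same side.

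Other factors of the same pathways were taken from lists of further subunits and partners. Of 73 genes in 5 lists, 6 were called higher and 2 lower in kidney footprints, beside 4.75% and 3.01% of all transcripts, and none was called in kidney RNA, kidney disomes, brain RNA or brain footprints by edgeR. At an unadjusted p below 0.05 the latter comparisons held 14, 2, 2 and 15 of the genes, in that order, beside 16.8%, 10.8%, 3.46% and 12.6% of all transcripts, and disomes were tested for 61. The median kidney footprint change of the 73 genes was 0.05, and 40 of them had a positive value. Among 16 deadenylation genes, 2 rose: Cnot4, the ubiquitin ligase of CCR4-NOT, with 6.43, 6.45 and 5.44 CPM in WT and 7.51, 9.54 and 8.76 CPM in KO (log2 fold change 0.51 ± 0.13, adjusted p = 0.0318 by edgeR), and Tob2, which brings the complex to its targets, with 11.8, 17.8 and 18.4 CPM in WT and 22.3, 23.8 and 22.0 CPM in KO (0.53 ± 0.15, adjusted p = 0.0465). Among 17 exosome and Ski genes, Ttc37, the scaffold of the Ski complex that feeds RNA to the exosome, had 9.17, 9.68 and 7.64 CPM in WT and 12.4, 13.1 and 13.4 CPM in KO (0.56 ± 0.11, adjusted p = 0.0150). The exosome helicase gene Mtrex also rose (0.47 ± 0.12).

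Among 13 decapping genes, 1 rose and 1 fell. Edc4, which encodes a scaffold of the decapping enzyme, rose by 0.42 ± 0.11 on the log2 scale. Lsm1, a subunit of the ring that binds deadenylated 3′ ends, had 2.89, 3.49 and 3.97 CPM in WT and 1.98, 2.26 and 2.12 CPM in KO (-0.65 ± 0.18, adjusted p = 0.0447 by edgeR). Among 14 genes of nonsense-mediated decay none rose and Smg5, whose product helps to dephosphorylate UPF1, fell, with 8.47, 7.73 and 8.67 CPM in WT and 5.33, 6.44 and 5.66 CPM in KO (-0.49 ± 0.12, adjusted p = 0.0304). In the fit with all libraries Upf1 and Smg5, of the same pathway, were thus called in opposite directions. Smg5 was 1 of 14 genes, beside 3.01% of all transcripts called lower. Calls of the list genes without KO kidney Ribo-seq library 2 or 3 are not given here. Over all transcripts those fits called 517 of 72491 and 285 of 72679. In each of the list genes called with all libraries, WT and KO did not overlap, as in 29.7% of all transcripts tested. For the list genes named by rule this was a condition of naming, so it could not have come out otherwise. Mtrex and Edc4 were added to the named genes after their values were seen.

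RNAs that nonsense-mediated decay is known to limit were listed as well: Gas5, Gadd45a, Gadd45b, Atf4, Ddit3 and Tbl2. None of the 6 was called in kidney RNA by edgeR, while 3 had an unadjusted p below 0.05, all with positive log2 fold changes: Ddit3 0.98 ± 0.31, Gas5 0.80 ± 0.28 and Atf4 0.56 ± 0.20, each with an adjusted p of 0.292 (edgeR). Over all transcripts 16.8% were below 0.05 unadjusted, and KO libraries 2 and 3 of this assay are those with the most mitochondrial rRNA. Atf4 had KO above WT without overlap, as 10.1% of all transcripts did, and the groups of the other two overlapped. Gadd45a (-0.07 ± 0.40), Gadd45b (0.16 ± 0.43) and Tbl2 (-0.14 ± 0.18) did not pass the test either. In brain RNA the values of the 6 ranged from -0.03 to 0.38 and none had an unadjusted p below 0.05. In brain footprints Gas5 had -0.79 ± 0.21 (adjusted p = 0.231 by edgeR) with every KO library below every WT library, as in 8.7% of all transcripts, and Gadd45b had -0.41 ± 0.18 (adjusted p = 0.367). These 2 were below 0.05 unadjusted, beside 12.6% of all transcripts. Atf4 and Ddit3 also respond to cellular stress, so the list is not specific to decay. The mouse libraries give RNA levels, not decay rates. The study followed the decay of labelled RNA (SLAM-seq) in human HEK293T cells only. There it found no evidence that RPL41 loss selectively lowered the stability of transcripts for long proteins.

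WT brain and WT kidney differed in 4 members in RNA-seq, where 64.1% of 88731 transcripts were called, and in 5 in footprints, where 70.9% of 82957 were called. Libraries were scaled within the assay for these fits, and the values that follow are CPM of all counts. Dcp2 had 9.28, 8.70 and 8.60 CPM of RNA-seq in kidney and 19.9, 19.1 and 19.1 in brain (log2 difference, brain minus kidney, 0.88 ± 0.16, adjusted p = 6.69e-04 by edgeR). Its footprints were 2.01, 1.75 and 2.14 CPM in kidney and 7.95, 9.05 and 7.29 in brain (1.94 ± 0.18, adjusted p = 2.67e-07). Footprints thus differed more than RNA, and the TE of Dcp2 was higher in brain by 1.06 ± 0.24 on the log2 scale (adjusted p = 0.00535 by edgeR). It was the 1 member called in this comparison, beside 19.8% of 96684 transcripts (8.09% higher).

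Cnot7 had 13.4, 9.33 and 14.3 CPM of RNA-seq in kidney and 24.1, 28.9 and 23.9 in brain (0.82 ± 0.19, adjusted p = 0.00317 by edgeR), and 3.13, 4.44 and 4.42 CPM of footprints in kidney and 9.06, 9.58 and 10.5 in brain (1.22 ± 0.18, adjusted p = 3.63e-05). The RNA call depended on the transcript: for its most-read transcript, which encodes the same 285 amino acids, the RNA difference was 0.39 ± 0.19 (adjusted p = 0.0951). Its paralog Cnot8 had -0.30 ± 0.16 in RNA, which did not pass the test (adjusted p = 0.134), while footprints were higher by 0.45 ± 0.12 (adjusted p = 0.00486) and TE by 0.74 ± 0.22 (adjusted p = 0.0230). Lower in brain were Xrn2, by -0.66 ± 0.17 in RNA and -0.58 ± 0.14 in footprints, and Smg6, by -0.51 ± 0.15 and -0.37 ± 0.14. The calls of Smg6 were the least stable of these, held in 10 of 14 alternatives for RNA and 6 of 14 for footprints. Upf1 was lower in brain in footprints (-0.55 ± 0.13) and had -0.18 ± 0.15 in RNA. Scaling by library totals alone moved the median RNA difference of all transcripts from 0.20 to 0.45 and ended the RNA calls of Xrn2 (-0.40) and Smg6 (-0.26) without changing their direction. Cnot1, Cnot2, Cnot3, Xrn1 and Upf2 were not called in either assay.

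Across the 30 libraries, with log2 CPM centred within each tissue and assay, the members varied together to different degrees. Pearson's r over the 6 pairs of CCR4-NOT subunits ranged from -0.35 to 0.22 with a median of 0.04, and over all 45 pairs of members from -0.50 to 0.83 with a median of 0.17. The closest pairs were Upf2 with Smg6 (0.83) and Cnot1 with Upf1 (0.80), and the most opposed was Cnot7 with Xrn2 (-0.50). The genes most like the mean of the 10 members were Tln2 (0.90), Dync2h1 (0.89) and Pds5b (0.88), out of 4277 genes with at least 10 counts in every library. Their proteins have 2544, 4313 and 1449 amino acids. The centring left the difference between KO and WT in these values, so changes shared by genotype enter the correlations. All of these points share libraries and depth, and the correlations are descriptions.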

How the data were processed

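Per the study's methods, the authors trimmed reads with cutadapt, removed rRNA reads, aligned the rest with STAR to GRCm38, allowing multimapping reads, and counted them with featureCounts. The deposited values are whole-number read counts per transcript without normalization. Reads shared by isoforms can enter each of them. Tool versions are not given in the sources used here. A table of human transcripts, whose 28 value columns carry mouse sample names, was not used, and the 44 HEK293T samples were not analysed here. Transcripts were joined to GENCODE M21 (141374 of 142604 matched).

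The members and lists were chosen with earlier results of these data known. Named beyond the members were Rpl41, Cnot8, up to 4 called list genes a direction and the 3 genes most like the members' mean. A list gene that this rule names is not reported here. Genotypes were compared by the edgeR quasi-likelihood test after filterByExpr and TMM scaling, with p-values adjusted by Benjamini-Hochberg across all transcripts tested and a threshold of 0.05. TE, disomes relative to footprints and tissue differences were interaction terms. SE is the size of the log2 fold change divided by the square root of its F statistic.

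Alternatives were DESeq2, library totals alone, no filter beyond 1 count, a minimum of 10 counts per library, gene sums, 1 transcript per gene, a replicate block and each library left out. The most-read transcript and leaving out both KO kidney RNA-seq libraries 2 and 3 were chosen after seeing the data. Deviations of same-numbered libraries correlated above 0.1 in every pair between WT and KO disome-seq (0.11 to 0.22) and between Ribo-seq and RNA-seq of WT kidney (0.19 to 0.22), WT brain (0.19 to 0.51) and KO kidney (0.14 to 0.15). The scripts were tested on simulated counts. R 4.3.3, edgeR 4.0.16, DESeq2 1.42.0 and Python 3.11.15 were used.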

Additional observations from a re-analysis of the deposited data

Results flagged for a closer look

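The contrast of footprints with RNA differed between WT tissues for Dcp2 by a test of the difference itself. Dcp2 had 2.01, 1.75 and 2.14 footprint CPM (of all counts) in WT kidney and 7.95, 9.05 and 7.29 in WT brain, and 9.28, 8.70 and 8.60 RNA-seq CPM in kidney and 19.9, 19.1 and 19.1 in brain. The log2 ratio of footprints to RNA was -2.17 in kidney and -1.26 in brain from these means, and the fitted difference, brain minus kidney, was 1.06 ± 0.24 (adjusted p = 0.00535 by edgeR). It was called under all 20 alternatives run, at 0.90 to 1.12. The transcript has 1266 coding bases of 8616, and the kidney footprint values rest on 26 to 52 reads.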

How the results depend on the processing

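In kidney footprints, where 3 members were called, 6 were called with no filter beyond 1 count, and leaving out each library in turn gave 0 to 6. Over all transcripts, the fit without a filter called 9936 of 127211. The fits with a library left out called from 285 of 72679 to 5843 of 80068. Kidney TE, with 0 members called, gave 1 by DESeq2 and 0 to 1 with a library left out. Kidney RNA and the tissue difference of RNA also gave 0 to 1 with a library left out, the 1 being Smg6 without KO kidney RNA-seq library 1. Without both KO kidney RNA-seq libraries 2 and 3, no member was called in kidney RNA. The replicate block left the number of members called the same in all 13 comparisons. Of 2193 values of single genes under an alternative, 2156 kept their direction and side of the threshold, 22 were no longer past it, 15 came to pass it and 0 reversed a call, while 152 values not past it changed sign.

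Calls over all transcripts moved more. They ranged over the alternatives from 285 to 9936 in kidney footprints (5838 as reported), from 0 to 12466 in kidney RNA (7), from 13 to 278 in kidney disomes (70), from 0 to 1573 in brain footprints (28) and from 0 to 23 in brain RNA (12). The number of features tested differed between alternatives, and the 13 in kidney disomes came from gene sums, over 12296 genes in place of transcripts. The block gave 4010 calls in kidney footprints and 80 in brain footprints, where same-numbered WT and KO libraries did not deviate together in every pair (r from -0.30 to 0.14 and from -0.26 to -0.07). Counting limits Dcp2 most, with 14 to 78 kidney footprints and 3 to 9 disomes a library.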
